A study of Mus musculus with 12 samples.

Results

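Arachidonic acid is the starting point of 2 families of lipid mediators, and the 10 genes described here encode the enzymes that release it and turn it into prostaglandins or leukotrienes. They were taken by symbol from a written list of 10, and all 10 were among the 10697 genes measured. The libraries came from primary mouse adult fibroblasts (MAFs), wild-type cells grown out of C57BL6/j mouse biopsies in high-glucose medium with serum. A first group of 6 libraries came from cells given 100 µM thymol, a phenolic monoterpene of herbs, for 24 h. The other 6 came from cells given an equal volume of the solvent, DMSO, for the same time. Neither the number or age of the mice nor a separate culture for each library is given in the sources used here. The p-values therefore measure the spread between libraries, which may be technical.

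Cytosolic phospholipase A2 (*Pla2g4a*) cuts arachidonic acid out of membrane phospholipids. The cyclooxygenases *Ptgs1* and *Ptgs2* convert it to prostaglandin H2, which terminal synthases turn into prostaglandin E2 (*Ptges*, *Ptges2*, *Ptges3*) or prostacyclin (*Ptgis*). In the other branch, 5-lipoxygenase (*Alox5*) works with its membrane partner FLAP (*Alox5ap*) to make leukotriene A4, which *Lta4h* hydrolyses to leukotriene B4. Fibroblasts are known as a source of prostaglandins after an inflammatory stimulus, whereas the 5-lipoxygenase branch belongs mainly to myeloid cells.

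Transcripts were measured by QuantSeq, a method that sequences only a short tag next to the poly(A) tail. A transcript gives about 1 read whatever its length, so levels of different genes are compared below without division by length. All levels are log2 CPM, the base 2 logarithm of read counts scaled to library size (CPM). Whole reads recovered from the deposited values summed to between 5435985 and 9049796 per library. Both fibroblast and macrophage transcripts were present, and this bears on which cells the synthesis genes came from. Of 10 fibroblast markers 8 were measured, all but *Lum* and *Fap*, and of 10 macrophage markers all 10 were. In DMSO the markers averaged 8.09 for fibroblasts and 8.10 for macrophages, and the median marker level over all libraries was 8.28 and 7.72. Of the markers of other cells, 0 of 6 for mast cells, 0 of 6 for dendritic cells, 1 of 7 for neutrophils (*S100a8*), 1 of 5 for keratinocytes (*Krt10*) and 2 of 5 for endothelial cells (*Cdh5* and *Vwf*) were measured. The endothelial pair averaged 1.82 in DMSO and 1.81 with thymol.

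The DNA and RNA sequences that best set the cyclooxygenases and 5-lipoxygenase apart are shown first. *Ptgs2* is known as the inducible cyclooxygenase, with a transcript that is short-lived, and *Ptgs1* as the steadily expressed one. RefSeq promoter sequences, from the GRCm38.p6 build, were matched for 8 of the 10 genes. Each spans 300 bases, 250 before the annotated start site and 50 after it, 5′ to 3′ on the strand of the gene. Letters of the GC box (GGGCGG), the TATA box (TATAAA), the E-box (CACGTG) and the half-site of the cyclic AMP response element (ACGTCA), sought on both strands, are in capitals. The windows lie at chr1:150099781-150100080 on the plus strand for *Ptgs2*, chr2:36230176-36230475 on the plus strand for *Ptgs1* and chr6:116461129-116461428 on the minus strand for *Alox5*.
Ptgs2: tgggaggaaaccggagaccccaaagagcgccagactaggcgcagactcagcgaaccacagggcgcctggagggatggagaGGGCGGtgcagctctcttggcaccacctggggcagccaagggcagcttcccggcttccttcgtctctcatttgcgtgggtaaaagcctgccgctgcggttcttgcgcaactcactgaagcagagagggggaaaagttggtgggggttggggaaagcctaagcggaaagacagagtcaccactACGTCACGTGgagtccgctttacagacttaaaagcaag
Ptgs1: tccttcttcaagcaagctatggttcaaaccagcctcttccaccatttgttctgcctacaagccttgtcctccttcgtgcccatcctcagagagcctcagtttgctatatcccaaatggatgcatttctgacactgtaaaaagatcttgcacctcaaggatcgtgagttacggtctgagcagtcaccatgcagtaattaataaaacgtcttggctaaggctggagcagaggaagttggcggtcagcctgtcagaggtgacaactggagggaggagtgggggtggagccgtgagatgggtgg
Alox5: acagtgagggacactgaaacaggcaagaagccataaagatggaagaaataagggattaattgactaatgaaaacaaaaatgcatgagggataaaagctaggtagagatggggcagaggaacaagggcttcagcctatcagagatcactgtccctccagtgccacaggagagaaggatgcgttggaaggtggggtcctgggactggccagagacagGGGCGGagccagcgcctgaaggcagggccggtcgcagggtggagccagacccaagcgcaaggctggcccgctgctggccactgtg

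The *Ptgs2* window held 1 E-box that overlapped 1 half-site just after the annotated start site, and 1 GC box. An E-box was present in 7.15% of 32851 promoter windows of this length, the half-site in 7.51% and the GC box in 35.7%. The *Ptgs1* window held none of the 4 motifs. Of 3 further motifs, not capitalized here, an NF-κB-like motif (20.7% of all windows) had 0 matches in *Ptgs2* and *Ptgs1* and 1 in *Alox5*. The C/EBP-like TTNNGNAAN (40.6%) had 3 partly overlapping matches in *Ptgs2* and 0 in the other 2 windows, and the AP-1 site TGANTCA (7.81%) had 0 in all 3. The *Alox5* window held 1 GC box, and none of the 3 windows held TATAAA, which was present in 13.6% of all windows. These matches describe letters only and say nothing of factors bound in these cells. Sites farther from the start site were not sought, so a count of 0 holds for the window alone.

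The 3′ untranslated regions differed in the pentamer ATTTA, the core of the AU-rich elements that are known to shorten the life of cytokine and *Ptgs2* transcripts. By GENCODE vM21, the longest coding transcript of *Ptgs2* has a 3′ untranslated region of 2445 bases with 14 ATTTA pentamers, more than 96.9% of the 10283 measured genes that could be scored. That of *Ptgs1* has 921 bases and 0 pentamers, and those of *Alox5* and *Alox5ap* have 2 each, which is also the median of all genes. The count also follows length, and the median region had 1228 bases. The densest stretch in *Ptgs2* lies just after the stop codon at chr1:150105794-150105823 (GRCm38, plus strand), with the pentamers in capitals.
Ptgs2 AU-rich stretch: ccatATTTATTTATTTAtgtgaagaATTTA

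The first question was how strongly each enzyme was expressed in these cultures. *Ptgs2* was the most abundant of the 10 transcripts, and it exceeded *Ptgs1* in 12 of 12 libraries. Its level over all 12 libraries was 9.06 ± 0.12 (SD, n = 12), at the 98.0th percentile of all genes, with 2925 to 4441 reads per library. *Ptgs1* averaged 7.78 ± 0.13 (SD, n = 12). The difference between both levels within a library averaged 1.28, a 2.43-fold excess of *Ptgs2*, and ranged from 1.01 to 1.50.

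Below the cyclooxygenases came *Alox5ap* at 7.29 ± 0.18, *Pla2g4a* at 6.80 ± 0.15, *Ptges3* at 6.80 ± 0.12, *Ptgis* at 6.39 ± 0.17 and *Lta4h* at 5.77 ± 0.18 (SD, n = 12 each). The lowest were the inducible prostaglandin E synthase *Ptges* at 4.71 ± 0.26, *Alox5* at 4.38 ± 0.29 and *Ptges2* at 3.75 ± 0.32 (SD, n = 12 each). *Alox5ap*, whose product has no known enzyme activity of its own, was thus present at a far higher transcript level than *Alox5*, the enzyme it serves. Neighbours in this order were compared within libraries by an exact two-sided sign-flip permutation test, adjusted over 9 pairs. The order was taken from these same 12 libraries with both groups pooled, so the p-values show only how steadily a difference recurred. *Pla2g4a* and *Ptges3* could not be ordered, with a mean difference of 0.0055 ± 0.22 (SD, n = 12) and the first higher in 5 of 12 libraries (exact p = 0.933). *Ptges* exceeded *Alox5* in 10 of 12 libraries by 0.33 (adjusted exact permutation p = 0.023), and *Alox5* exceeded *Ptges2* in 11 of 12 by 0.63 (adjusted exact permutation p = 0.0025). The other 6 neighbouring pairs had the same order in 12 of 12 libraries (adjusted exact permutation p = 0.00073 each).

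**Figure D1:**
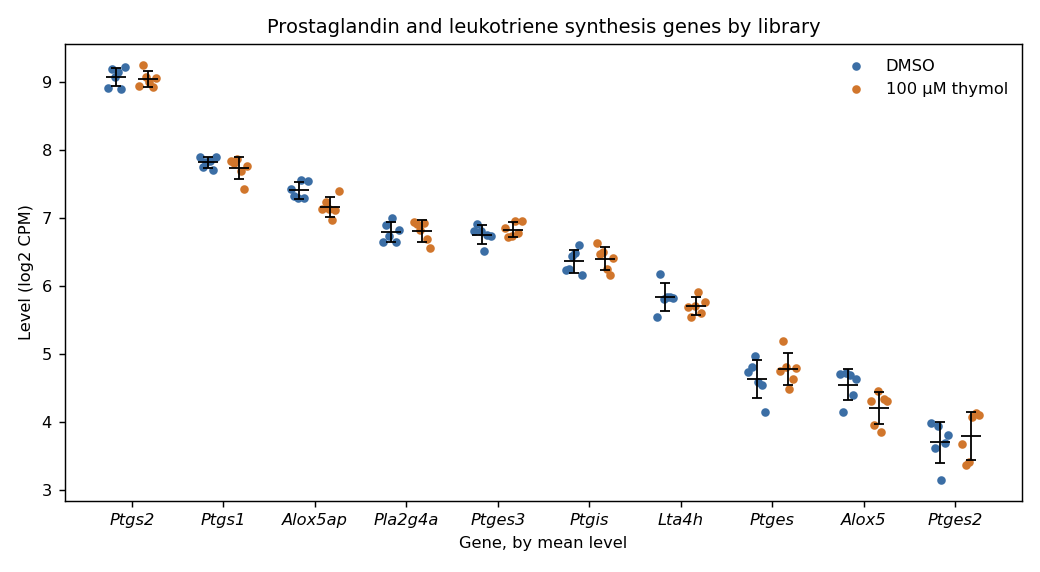
Levels of the 10 genes in log2 CPM (vertical axis), by gene in order of mean level (horizontal axis), in 6 DMSO and 6 thymol libraries. Points are libraries and bars are the mean ± SD. *Ptgs2* lies near 9 and *Ptges2* below 4.2, and the groups overlap for all 10 genes.

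The second question was which of these transcripts differed after thymol. Of the 10, 1 passed an adjusted p-value of 0.05 (limma), *Alox5ap*, which was lower. Over all 10697 genes, 2.22% passed, 1.57% towards lower and 0.654% towards higher levels. The groups did not overlap for 0 of the 10 genes, against 1.68% of all genes. By value, 5 of the 10 were lower and 5 higher, and their median log2 fold change, thymol minus DMSO, was -0.0044 against 0.0026 over all genes. The 3 leukotriene genes were all lower by value, from -0.35 to -0.13, and of these only *Alox5ap* passed. The 6 prostaglandin synthesis genes ranged from -0.083 to 0.14. Of 9 other lipoxygenase and leukotriene enzymes measured, described below, 4 were higher and 5 lower by value.

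**Figure D2:**
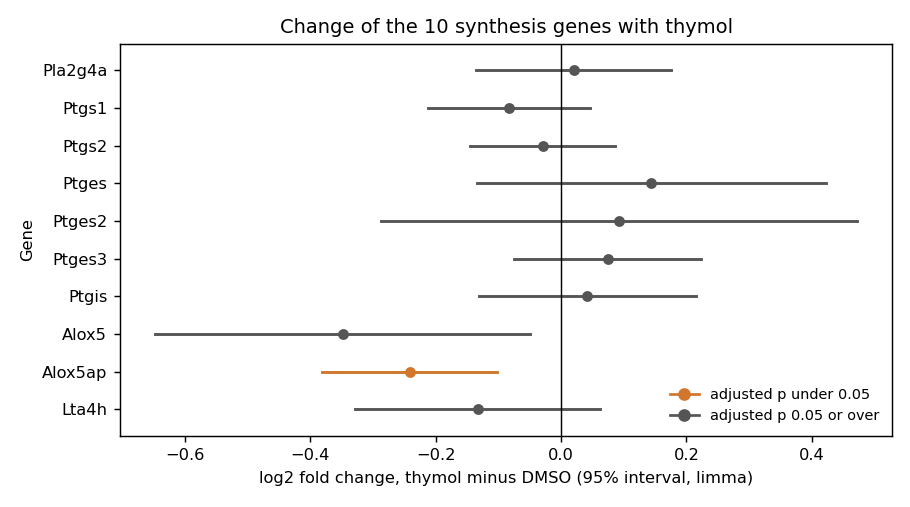
The log2 fold change (horizontal axis, thymol minus DMSO) of the 10 genes (vertical axis) with the 95% interval from limma. The interval of *Alox5ap* runs from -0.38 to -0.10 and that gene alone has an adjusted p under 0.05. The intervals of *Alox5* and *Alox5ap* exclude 0 and those of the other 8 include it.

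*Alox5ap* (chromosome 5, 149264767 to 149288153, plus strand) encodes FLAP, which presents arachidonic acid to 5-lipoxygenase. The lowest, median and highest levels were 7.29, 7.38 and 7.56 in DMSO and 6.97, 7.14 and 7.41 with thymol. In 5 of 6 thymol libraries the level was under every DMSO library, and only thymol replicate 6 lay within their range. The mean went from 7.41 ± 0.12 to 7.17 ± 0.14 (SD, n = 6 each), so the log2 fold change was -0.24 with an SE of 0.070 (limma adjusted p = 0.048). On the linear scale this is a ratio of 0.846, with a 95% interval of 0.768 to 0.932. It rested on 734 to 1312 reads per library.

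This call was close to the threshold. It held in 4 of the 12 fits that left out 1 library. Without DMSO replicate 1, 4 or 6 the log2 fold change was -0.24, -0.21 and -0.21, with limma adjusted p-values of 0.090, 0.136 and 0.148. Without thymol replicate 1, 2, 3, 4 or 5 it was -0.24, -0.25, -0.23, -0.20 and -0.23, with limma adjusted p-values of 0.061, 0.060, 0.106, 0.148 and 0.077. It also failed without the variance trend (limma adjusted p = 0.277) and after quantile normalization (limma adjusted p = 0.0503). Within odd-numbered and even-numbered libraries alone, the log2 fold change was -0.21 (limma adjusted p = 0.494) and -0.27 (limma adjusted p = 0.158). The direction was the same in all of these fits.

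An antisense gene, *Gm19719* (149282752 to 149287868, minus strand), lies within *Alox5ap*. Its edge nearer the 3′ end of *Alox5ap*, 285 bases away, is where *Gm19719* starts. The 3′ end of *Gm19719*, the part that QuantSeq tags, is at its far edge. The strand setting of the counting is not given in the sources used here. Whether any reads of *Gm19719* were counted for *Alox5ap* was not tested.

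*Alox5* (chromosome 6, 116410077 to 116461178, minus strand) encodes 5-lipoxygenase itself. Its lowest, median and highest levels were 4.15, 4.67 and 4.72 in DMSO and 3.85, 4.31 and 4.45 with thymol. All 6 thymol libraries lay under the DMSO median, but DMSO replicates 2 and 5, at 4.15 and 4.4, lay among them. On average it was lower by a log2 fold change of -0.35 with an SE of 0.15, which did not pass (limma adjusted p = 0.301), and the 95% interval ran from -0.65 to -0.049. The gene had only 83 to 209 reads per library, which limits the precision. Leaving out DMSO replicate 2 gave the value farthest from 0, -0.43, and leaving out thymol replicate 4 the nearest, -0.28. It passed in 0 of these 12 fits.

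**Figure D3:**
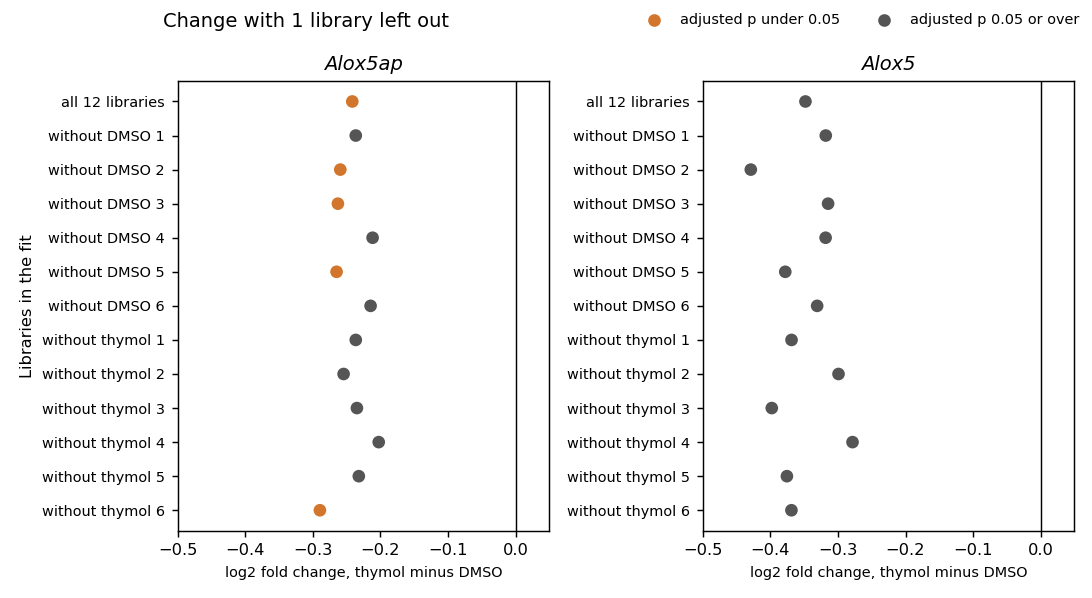
The log2 fold change (horizontal axis, thymol minus DMSO) of *Alox5ap* (left) and *Alox5* (right) in the fit to all 12 libraries and in the 12 fits without 1 library (vertical axis). Colour marks an adjusted p under 0.05, reached by *Alox5ap* with all libraries and in 4 of the 12 other fits, and by *Alox5* in none.

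*Lta4h* (chromosome 10, 93453411 to 93484875, plus strand) encodes the hydrolase that makes leukotriene B4 and also acts as an aminopeptidase. Its lowest, median and highest levels were 5.55, 5.83 and 6.19 in DMSO and 5.54, 5.70 and 5.92 with thymol. The groups overlapped over most of their range. Thymol minus DMSO was -0.13 with a 95% interval of -0.33 to 0.063 (limma adjusted p = 0.667), and without DMSO replicate 2, the highest library, it was -0.064.

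Because *Alox5ap* and *Alox5* are known from myeloid cells, the levels of these genes were set against the 10 macrophage markers. The mean of these markers was 8.10 ± 0.041 in DMSO and 8.07 ± 0.069 with thymol (SD, n = 6 each), with library values of 8.04 to 8.15 and 7.97 to 8.18. These means differed by -0.025, no more than libraries of 1 group did (exact permutation p = 0.470, two-sided). Of the 10 markers, 1 passed the threshold, against 2.22% of all genes. It was the integrin gene *Itgam*, with a log2 fold change of -0.31 (limma adjusted p = 0.00071). *Alox5ap* relative to the marker mean was lower with thymol by 0.22 on the log2 scale, near its unscaled change. Over the 5 log ratios tested, all chosen after the data had been seen, that difference did not pass (exact permutation p = 0.039, adjusted p = 0.079). As *Alox5ap* had itself passed in these same libraries, that p-value is no independent support. For *Alox5* relative to the same mean, the difference was -0.32 (exact permutation p = 0.045, adjusted p = 0.079). *Alox5ap* relative to *Ptgs1*, its neighbour in level, differed by -0.16 (exact permutation p = 0.091, adjusted p = 0.114). *Alox5ap* relative to *Itgam*, a marker picked because it was lower, differed by 0.064 and was not tested. In bulk cultures, fewer cells of a type and less RNA per cell cannot be told apart, and the part of either in these values was not tested.

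Among the prostaglandin genes, *Ptgs2* (chromosome 1, 150100031 to 150108227, plus strand) was measured most precisely. Its lowest, median and highest levels were 8.90, 9.12 and 9.22 in DMSO and 8.94, 9.04 and 9.26 with thymol. The groups shared nearly the whole range. Thymol minus DMSO was -0.029 with an SE of 0.057 (limma adjusted p = 0.923), and the 95% interval of -0.14 to 0.086 corresponds to a ratio between 0.905 and 1.06.

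*Ptgs2* is a known target of NF-κB signaling, the pathway that also drives the cytokine gene *Il6* and the chemokine gene *Cxcl2*. Those genes, picked for this comparison because their falls were already known, had log2 fold changes of -0.77 (limma adjusted p = 0.0033) and -1.96 (limma adjusted p = 8.4e-09). Being picked in this way, they do not stand for the targets of the pathway as a whole. The log2 ratio of *Ptgs2* to *Il6* was 4.81 ± 0.25 in DMSO and 5.55 ± 0.26 with thymol (SD, n = 6 each). It was above every DMSO library in 5 of 6 thymol libraries, with a difference of 0.75. The log2 ratio to *Cxcl2* was 4.82 ± 0.28 in DMSO and 6.76 ± 0.43 with thymol (SD, n = 6 each). It was above every DMSO library in 6 of 6 thymol libraries, with a difference of 1.93. Both ratios are descriptions with no test, since the falls of the reference genes were known when they were picked. Both differences mostly restate those falls, as *Ptgs2* itself had a log2 fold change of -0.029. With 10 added to the CPM before the logarithm, the differences were 0.44 and 0.95, since both reference genes have low levels.

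*Ptgs1* (chromosome 2, 36230426 to 36252272, plus strand) had lowest, median and highest levels of 7.72, 7.83 and 7.91 in DMSO and 7.44, 7.79 and 7.87 with thymol. Only thymol replicates 4 and 5 lay under the DMSO libraries. The difference of -0.083 had a 95% interval of -0.21 to 0.046 (limma adjusted p = 0.695). The log2 ratio of *Ptgs2* to *Ptgs1* went from 1.26 ± 0.15 in DMSO to 1.31 ± 0.15 after thymol (SD, n = 6 each), a difference within the spread of either group (exact permutation p = 0.515).

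*Pla2g4a* (chromosome 1, 149829618 to 149961290, minus strand) is the genomic neighbour of *Ptgs2*. Both genes are read away from each other, from start sites 138741 bases apart. Levels of *Pla2g4a* were 6.64, 6.78 and 7.01 (lowest, median and highest) in DMSO and 6.56, 6.87 and 6.95 with thymol. The groups overlapped nearly fully, with a log2 fold change of 0.020 and a 95% interval of -0.14 to 0.18 (limma adjusted p = 0.967). After the mean of each group was taken away, the levels of both neighbours over the 12 libraries had a Pearson r of 0.46 and a Spearman rho of 0.44, given as a description.

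The 3 prostaglandin E synthases are unrelated proteins. *Ptges* (chromosome 2, 30889471 to 30929863, minus strand) encodes the inducible microsomal enzyme that is usually coupled to *Ptgs2*. Its levels were 4.15, 4.67 and 4.97 (lowest, median and highest) in DMSO and 4.49, 4.77 and 5.19 with thymol, with a log2 fold change of 0.14 and a 95% interval of -0.13 to 0.42 (limma adjusted p = 0.782). The highest library was thymol replicate 2 and the lowest was DMSO replicate 6, with the rest of both groups intermixed.

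*Ptges2* (chromosome 2, 32395896 to 32405772, plus strand) had 57 to 156 reads per library, the fewest of the 10 genes. Its levels were 3.15, 3.75 and 3.99 in DMSO and 3.36, 3.88 and 4.13 with thymol (lowest, median and highest). Its interval was the widest among the prostaglandin genes, from -0.29 to 0.47 around a log2 fold change of 0.093 (limma adjusted p = 0.926).

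*Ptges3* (chromosome 10, 128058954 to 128077272, plus strand) encodes p23, better known as a co-chaperone of HSP90. Its levels were 6.51, 6.78 and 6.92 in DMSO and 6.72, 6.81 and 6.96 with thymol (lowest, median and highest), a log2 fold change of 0.074 with a 95% interval of -0.074 to 0.22 (limma adjusted p = 0.792). A processed pseudogene of this gene, *Ptges3-ps* on chromosome 6, is annotated and was not among the measured genes. Whether reads were shared with it was not tested. *Hsp90ab1* and *Hsp90aa1*, its chaperone partners, had log2 fold changes of 0.036 and 0.073 (limma adjusted p = 0.855 and 0.783).

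*Ptgis* (chromosome 2, 167191805 to 167240604, minus strand) encodes prostacyclin synthase, known from vessels and fibroblasts. Its levels were 6.16, 6.35 and 6.61 in DMSO and 6.16, 6.44 and 6.64 with thymol (lowest, median and highest). The groups coincided, with a log2 fold change of 0.042 and a 95% interval of -0.13 to 0.21 (limma adjusted p = 0.927). The mean of the 8 fibroblast markers was lower with thymol, at 7.93 ± 0.055 against 8.09 ± 0.067 in DMSO (SD, n = 6 each). The difference of -0.16 passed over both marker means tested (exact permutation p = 0.0043, adjusted p = 0.0087). As single genes, 2 of the 8 markers passed the limma threshold, both lower, against 1.57% of all genes towards lower levels. The collagen gene *Col1a1* was 1 of them, with a log2 fold change of -0.28 (limma adjusted p = 2.9e-05). Relative to that mean, *Ptgis* was higher by 0.20, which did not pass over the 5 ratios (exact permutation p = 0.048, adjusted p = 0.079). Most of this 0.20 restates the lower marker mean, as *Ptgis* itself had 0.042. The noncoding gene *1110018N20Rik* overlaps the 3′ end of *Ptgis* on the opposite strand. Whether its reads altered the count of *Ptgis* was not tested.

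The rest of the pathway was covered by 73 further genes in 6 lists, of which 43 were measured. Of the 43, 1 passed the threshold, *Acsl4*, which was lower, a share of 2.33% against 2.22% of all genes. With voom on recovered reads, 1 of the 43 passed too. In all, 9 of the 43 had an unadjusted limma p under 0.05, a larger share than the 11.8% of all genes. The lists were chosen with earlier results of these data known, and the larger share was not tested.

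**Figure D4:**
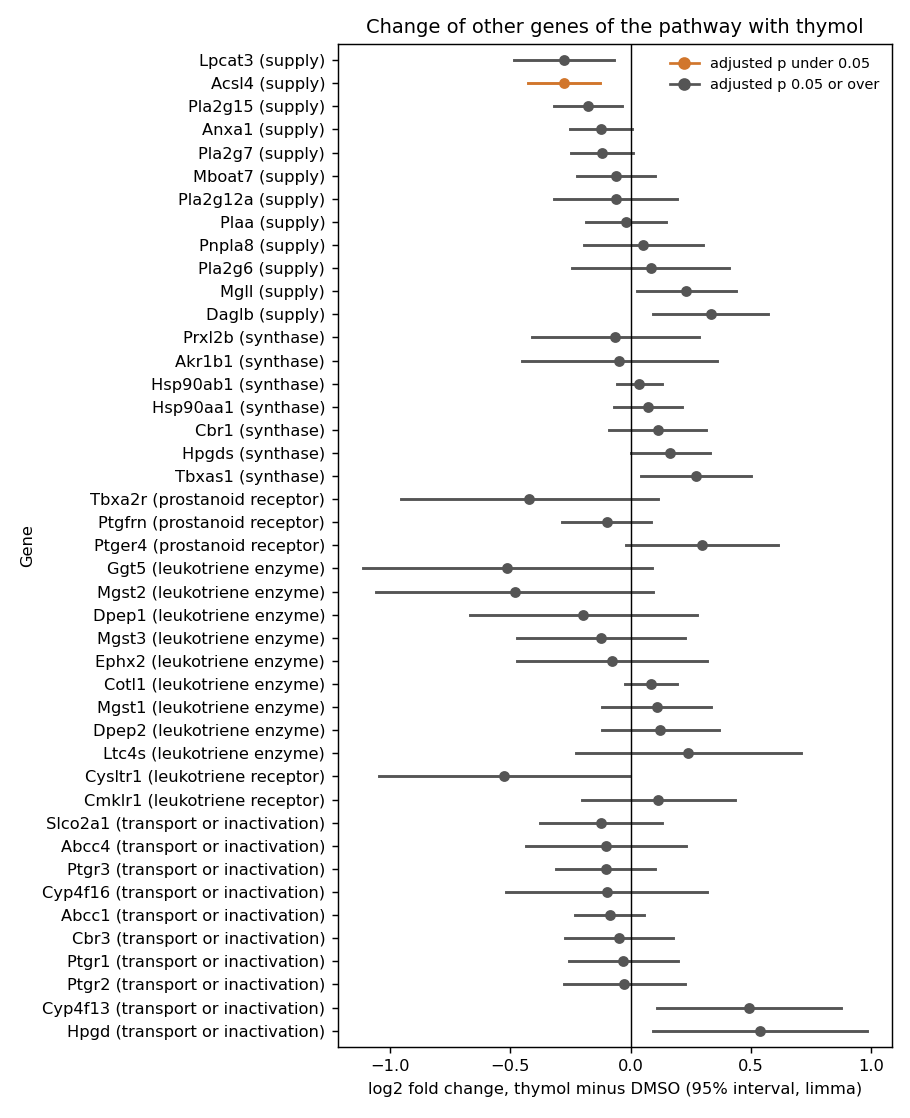
The log2 fold change (horizontal axis, thymol minus DMSO) with the 95% interval from limma for the 43 measured genes outside the 10, grouped by role (vertical axis). *Acsl4* at -0.28 is the gene with an adjusted p under 0.05, and the others range from -0.53 to 0.54.

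Genes that act on the release and supply of arachidonic acid, in either direction, numbered 12 of 20 listed. Of these, 1 was lower and 0 higher past the threshold. *Acsl4* encodes the acyl-CoA synthetase that prefers arachidonic acid, a step before its loading into phospholipids by other enzymes. Its lowest, median and highest levels were 6.81, 7.0 and 7.13 in DMSO and 6.51, 6.69 and 6.95 with thymol. In 4 of 6 thymol libraries it was under every DMSO library. Thymol minus DMSO was -0.28 with an SE of 0.074 (limma adjusted p = 0.027), a ratio of 0.825. It no longer passed without DMSO replicate 2, 5 or 6 (-0.26, -0.27 and -0.25) or without thymol replicate 3 or 4 (-0.27 and -0.23), with limma adjusted p-values of 0.077, 0.057, 0.092, 0.074 and 0.096. It also failed without the variance trend (limma adjusted p = 0.199). The most abundant genes of this list were *Anxa1*, whose product restrains phospholipase A2, and *Pla2g7*, which breaks down platelet-activating factor. Their log2 fold changes were -0.12 and -0.12 (limma adjusted p = 0.446 and 0.478). Besides *Acsl4*, 4 genes of this list had an unadjusted p under 0.05 and did not pass, and they are named after their values were seen. The lysophospholipid acyltransferase *Lpcat3* and the phospholipase *Pla2g15* had log2 fold changes of -0.28 and -0.18. The lipases *Daglb* and *Mgll*, which act in turn to free arachidonic acid by way of an endocannabinoid, had 0.33 and 0.23.

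Among 7 measured of 8 other synthases and partners, 0 passed with limma or with voom, and 1 had an unadjusted p under 0.05, the thromboxane synthase *Tbxas1*. It was named after its values were seen and had a log2 fold change of 0.27 (limma adjusted p = 0.286). Their most abundant genes were already given above, the chaperones *Hsp90ab1* and *Hsp90aa1*.

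Receptors were sparse in the table. Of 10 prostanoid receptors and partners 3 were measured, namely *Ptgfrn*, *Ptger4* and *Tbxa2r*, and of 8 leukotriene and resolvin receptors 2 were, namely *Cmklr1* and *Cysltr1*. None of the 5 passed with limma or with voom, and 1, *Cysltr1*, had an unadjusted limma p under 0.05. *Ptger4*, the prostaglandin E2 receptor EP4, had a log2 fold change of 0.30 with a 95% interval of -0.018 to 0.62 (limma adjusted p = 0.469). *Cysltr1*, a receptor of cysteinyl leukotrienes, had one of -0.53 on 21 to 63 reads per library, with a 95% interval of -1.05 to -0.0073 (limma adjusted p = 0.414). *Ptgfrn*, a partner of the prostaglandin F2α receptor, and *Cmklr1*, a receptor of chemerin and resolvin E1, had -0.099 and 0.12 (limma adjusted p = 0.771 and 0.870).

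Of 16 other lipoxygenases and leukotriene enzymes 9 were measured and 0 passed with limma, with voom or at an unadjusted p under 0.05. Their most abundant genes were *Cotl1*, a binding partner of 5-lipoxygenase, at a log2 fold change of 0.086 (limma adjusted p = 0.581), and the dipeptidase *Dpep2*, which converts leukotriene D4 to E4, at 0.12 (limma adjusted p = 0.787). Without thymol replicate 1 the value of *Dpep2* was 0.0067. Of 11 genes of transport and inactivation 10 were measured and 0 passed with limma or with voom, while 2, *Hpgd* and *Cyp4f13*, had an unadjusted p under 0.05. The most abundant were *Abcc1*, which exports leukotriene C4, at -0.086 (limma adjusted p = 0.726) and the reductase *Ptgr1* at -0.031 (limma adjusted p = 0.965). The largest value of this list, 0.54, belonged to *Hpgd*, which inactivates prostaglandins (limma adjusted p = 0.272) and was named after its values were seen.

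Genes that varied most like 4 of the members were sought over the 12 libraries after group means had been taken away. These are the highest Pearson r of 10697 genes and are given as a description. With 12 libraries and so many genes, high values can arise by chance, and no chance level was computed. For *Ptgs2* they included *Cers2* (r = 0.95, Spearman rho = 0.94), *Tnc* (0.92 and 0.88), *Lsm8* and *Pgam5*, of which *Tnc* encodes the matrix glycoprotein tenascin C. For *Alox5ap* they were *Pros1* (r = 0.93, rho = 0.84), *Cep192*, *Atxn3*, *Ndufv1* and *Zkscan6*. For *Alox5* they were *Rps26* (r = 0.96, rho = 0.85), *Gramd2b*, *Apbb2*, *Zfp830* and *Cplx2*, and for *Ptgis* they were *Ppcdc* (r = 0.92, rho = 0.90), *Decr2*, *Gcnt1*, *Kif5b* and *Sema3a*. Within the 10, *Alox5* and *Alox5ap* had a Pearson r of 0.42 and a Spearman rho of 0.24, and the highest pair was *Ptges2* and *Ptges3* (r = 0.71, rho = 0.54).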

How the data were processed

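QuantSeq libraries of 6 thymol-treated and 6 DMSO-treated MAF samples were analysed. Per the labels and the study's methods, the authors aligned reads to GRCm38 with STAR 2.5.3, counted them per gene with HTSeq 0.6.1, removed genes with few reads or no annotation and applied TMM scaling. The authors deposited log2 CPM values with a prior count, equal to 1.96 reads for an average library, which pulls fold changes of low genes towards 0.

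Once the logarithm was undone, all low values (below 200 reads) came out as whole reads to a tolerance of 0.02 (100%). Read totals cover counting error only, since QuantSeq reads are PCR products.

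The log2 values were fitted with limma 3.58.1 in R 4.3.3 (lmFit, then eBayes with trend, for 2 groups and no covariate). Benjamini-Hochberg adjustment ran over 10697 genes and 0.05 was the threshold. Adjusted p-values of single genes and their 95% intervals are from limma. Log ratios and marker means were compared by exact two-sided permutation over libraries (scipy 1.17.1). The procedure was tested on simulated data with the same variance setting for every gene. It called 81 of 100 genes with an absolute log2 fold change of 0.5 and 99 of 100 with 1. Of 10497 unchanged genes it called 6. Changes as small as those of *Alox5ap* and *Acsl4* were not simulated. Alternatives were other variance models, voom on recovered reads, pseudocounts of 1 and 10, a filter, scalings, library-number terms and leaving out each library. Named genes were the 10 members, wider-list genes past the threshold, the 2 most abundant genes of each wider list and the 5 genes most like 4 members, of which 1 is not reported here. The members and lists were chosen with earlier results of these data known.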

Additional observations from a re-analysis of the deposited data

Results flagged for a closer look

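Libraries that stood apart from the other 5 of their group were sought with Dixon's 95% critical value. Of 50 groups, covering the 10 synthesis genes, the named genes of the wider pathway and 2 marker means, 4 held a library past the critical value, where about 1 in 20, or 2.5, would by chance. None was a group of the 10 synthesis genes. *Ptger4* was low in DMSO replicate 4, at 3.55 against 4.00 in the next library. *Dpep2* was high in thymol replicate 1, at 6.18 against 5.59. *Ptgr1* was low in DMSO replicate 2, at 5.07 against 5.64. The mean of the fibroblast markers was high in thymol replicate 1, at 8.04 against 7.93.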

How the results depend on the processing

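Over all genes, 238 passed with the main settings, 57 without the mean-variance trend and 70 in the odd-numbered libraries alone, and between 172 and 270 with 1 library left out. The count of members past the threshold went from 1 to 0 without the trend, after quantile normalization, in the odd- or even-numbered libraries alone and in 8 of 12 fits without 1 library, where it ranged from 0 to 1. These were losses of *Alox5ap*, at -0.24 without the trend, -0.24 after quantile normalization, -0.21 in odd and -0.27 in even libraries, and between -0.29 and -0.20 with 1 library left out. Its adjusted p-values over all alternatives ran from 0.016 to 0.494. The smaller sets of libraries hold fewer samples, and otherwise the cause was not tested. *Acsl4* was lost in the odd- (-0.25) and even-numbered libraries (-0.30) too.

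Values near 0 changed sign. In odd-numbered libraries these were *Ptgs2* (0.017), *Ptges* (-0.022), *Ptges2* (-0.14), *Ptges3* (-0.0061), *Hsp90aa1* (-0.027) and *Hsp90ab1* (-0.037), and in even-numbered ones *Pla2g4a* (-0.11), *Ptgr1* (0.23) and *Abcc1* (0.0076). With 1 library left out, *Pla2g4a* ranged from -0.0094 to 0.072, *Ptges2* from -0.018 to 0.18, *Ptgis* from -0.0044 to 0.090 and *Ptgr1* from -0.16 to 0.035.

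The replicate numbers are not said to mark shared animals, and only 2 of 6 same-numbered pairs of libraries correlated above 0.1 in their deviations from the group means, so they were not treated as pairs. With the replicate block, 332 genes passed, *Alox5ap* among them (adjusted p = 0.022), and 1 of 6 DMSO libraries correlated best with its own number.

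In alternatives added after the data were seen, the log2 ratios of *Ptgs2* to *Il6* and *Cxcl2* differed by 0.68 to 0.83 and by 1.78 to 2.04 with 1 library left out, and by 0.44 and 0.95 with 10 added to the CPM. The ratio of *Alox5ap* to the macrophage marker mean passed without thymol replicate 6 (-0.28) and that of *Alox5* without DMSO replicate 2 (-0.40), each in that 1 of 12 fits. Among the 10 synthesis genes, *Ptges2* and *Alox5* had the fewest reads.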
